A study of Arabidopsis thaliana with 24 samples.

Results

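The basal cell is the lower, larger daughter of the Arabidopsis thaliana zygote. Here it is compared between reciprocal crosses of the accessions Col and Ler, with 3 libraries from Col (♀) × Ler (♂) and 3 from Ler (♀) × Col (♂). These 6 libraries were chosen by their labels, out of 24 in the series; the other 18 hold apical cells of the same stage and the embryo proper and suspensor of embryos of 32 cells. All came from plants grown at 22 °C under 16 h of light and 8 h of dark. The sample labels give embryos of 2 cells, whereas the series text names an earlier stage of 1 cell. Both crosses carry 1 genome set from each accession. The accession of the mother, that of the father and the source of the cytoplasm change places together and cannot be told apart. The values are totals per gene, and the parental alleles were not analysed here. The labels do not say how many cells went into a library.

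The zygote of Arabidopsis divides unequally. The apical daughter builds the embryo proper, and the basal daughter divides crosswise into the suspensor, a file of cells that anchors the embryo and feeds it from the mother. The homeobox genes WOX8 and WOX9 mark the basal lineage and act there downstream of the transcription factor WRKY2. The kinase YDA promotes basal fate and is activated by SSP, a protein that sperm bring in as RNA. Mitochondria and plastids are inherited from the mother in this species. Plant cells with disturbed mitochondria switch on a set of nuclear genes, among them the alternative oxidase AOX1A, through membrane-bound NAC transcription factors such as NAC017 and NAC13.

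Values are FPKM, fragments scaled to transcript length and to the mapped total of a library. Differences are Col minus Ler mother on the log2(FPKM + 1) scale, with standard errors from limma, which understates the change of genes with low values. A gene is called where limma gives it a p-value under 0.05 after Benjamini-Hochberg adjustment over the 18206 genes tested. Library values are given in the order of replicates 1, 2 and 3. Summed FPKM in the 6 libraries lay between 1039852 and 1099958, and 13930 to 14557 loci reached 1 FPKM. The series text calls the 3 libraries of a group independent biological replicates, without saying whether plants were pooled. In bulk libraries fewer cells of a type and less RNA per cell cannot be told apart.

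A pair of features of the files stands beside every result. Col replicate 3 and Ler replicates 2 and 3 carry a second wording of the library protocol, which allows NEBNext beside Nextera XT; the other 3 libraries name Nextera XT only. Both wordings occur in both crosses. Across all 24 libraries, 10 pairs of loci separated 2 kinds of value. All but a ribosomal RNA pair were picked for equal values above 1 FPKM in at least 9 libraries of other cells. Equal values outside the basal cell were thus partly built in. Shared sequence was measured for the ribosomal RNA pair only. In 16 libraries between 8 and 10 of these pairs were listed with equal values above 0, and in 8 libraries none was. The 8 were all 6 basal cell libraries, embryo proper Ler replicate 3 and suspensor Ler replicate 1. No basal cell library thus listed a pair with equal values, whereas all 6 apical cell libraries did. A difference between the cells and a difference in how the values were made cannot be told apart. Within the basal cell the ribosomal RNA pair was listed under AT3G41979 alone with a Col mother and under AT2G01020 alone with a Ler mother. Values of shared sequence are therefore uncertain between the crosses too.

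Both crosses carried the markers of the labelled cell. WOX8 was at 280, 263 and 230 FPKM with a Col mother, against 186, 229 and 247 FPKM with a Ler mother. The 6 apical cell libraries lay between 18.5 and 72 FPKM. WOX9, listed by RefSeq as HB-3, was at 253, 282 and 264 FPKM with a Col mother, against 428, 423 and 402 FPKM with a Ler mother, and at 2.12 to 26.1 FPKM in the apical cell. The crosses did not overlap for WOX9, but the difference of -0.65 ± 0.50 was not called (limma adjusted p = 0.506). It was called in the fit of the basal cell libraries alone (limma adjusted p = 0.0494). The summed FPKM of 6 basal cell markers averaged 1026 ± 231 with a Col mother and 1331 ± 189 with a Ler mother (SD, n = 3 each; exact permutation test, two-sided, p = 0.2, where 0.1 is the smallest p this design allows). For 6 apical cell markers the sum averaged 147 ± 44.3 with a Col mother and 164 ± 36.0 with a Ler mother (exact permutation p = 0.6), whereas apical cell libraries held 663 to 819.

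Markers of other tissues of the seed and of the gametes were present at uneven levels. Of 23 endosperm markers 17 were listed at 0 in all 6 libraries, and the sum of 68.7 to 370 FPKM with a Col mother and 172 to 443 FPKM with a Ler mother came mostly from the sucrose carrier SUC5, at 344, 324 and 58 FPKM with a Col mother, against 122, 230 and 419 FPKM with a Ler mother. Apical cell libraries held 20.1 to 54 FPKM of this list. The seed coat list summed to at most 35.7 FPKM with a Col mother and 84.6 FPKM with a Ler mother. The female gametophyte list summed to 161 to 264 FPKM with a Col mother and 244 to 395 FPKM with a Ler mother, and to 268 to 364 FPKM in apical cells. Within it the egg cell gene EC1.5 was at 51.6, 55.7 and 35 FPKM with a Col mother, against 198, 130 and 87.1 FPKM with a Ler mother. The polycomb gene FIE was at 52.8 to 67.1 FPKM against 77.1 to 102 FPKM. Other members of this list went the other way, FER among them (given below). EC1.3 was at 7.54, 12.9 and 0 FPKM with a Col mother, against 0.05, 0 and 0 FPKM with a Ler mother. MSI1 was at 110, 94.7 and 51.1 FPKM against 65.8, 71.4 and 25.1 FPKM. Sperm and pollen genes summed to 48.4 to 72.7 FPKM with a Col mother and 20.7 to 56.5 FPKM with a Ler mother. No difference between the crosses in these 4 sums passed the exact permutation test (p between 0.2 and 1), which cannot go below 0.1. The part of such markers in the differences below was not tested.

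Many genes differed between the crosses. Over the tested genes, libraries of different crosses correlated at 0.833 to 0.858 (Pearson, log2 scale) and those of the same cross at 0.846 to 0.948. Ler replicates 1 and 3, at 0.846, were as far apart as libraries of different crosses. With a Col mother 722 genes were higher and 564 lower, or 3.97% and 3.10% of those tested and 7.06% together. Under quantile normalization 624 were higher and 697 lower, so which direction held more calls depends on the scaling. The median difference of all tested genes was 0.02. In 1174 of the 1286 called genes the 3 and 3 libraries did not overlap. Over all tested genes 13.3% had every Col library above every Ler library, and 10.7% the reverse. The called genes lay on all 5 chromosomes in like shares, 3.66% to 4.25% of tested genes higher and 2.74% to 3.44% lower. Of the calls, 141 higher genes were listed at 0 in all 3 Ler libraries and 105 lower genes at 0 in all 3 Col libraries; no fold is given for such genes. The filter on low values needs 1 FPKM in 3 libraries, and 82 of the higher genes passed it only with the 3 Col libraries of the basal cell and 53 of the lower genes only with the 3 Ler libraries. Such genes had to differ, so those named below are given by their values, with no p. The count was 762, 726 and 553 without Col replicate 1, Col replicate 2 and Ler replicate 2, and 418 of the 1286 genes were called the same way whichever single library was left out. A fit of the 6 basal cell libraries alone called 451 genes, and 151 with the wording as a covariate.

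Differences were also called within each wording, where only 1 library meets 2. With the first wording 329 genes were higher and 197 lower (1.81% and 1.08%; 2.89% together), and with the second 383 were higher and 327 lower (2.10% and 1.80%; 3.90% together). In these fits the lone library is assumed to vary like the other groups. Of the 1286 called genes 1261 had the same sign within both wordings. Both parts come from the 6 libraries that gave the calls, so a shared sign was largely built in. The share of all tested genes with a shared sign is not given here. The second against the first wording itself gave 46 genes higher and 72 lower (0.253% and 0.395%), and 20 of the 1286 genes were among them.

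The largest differences toward a Col mother were close to present and absent. AT3G45730, an uncharacterized protein, was at 105, 149 and 319 FPKM with a Col mother, against 0 in all 3 libraries with a Ler mother (limma adjusted p = 9.41e-07). GSTU9, a tau class glutathione S-transferase of detoxification, was at 122, 112 and 310 FPKM with a Col mother and listed at 0 with a Ler mother (limma adjusted p = 5.65e-04). AT5G54560, of the DUF295 family, was at 136, 117 and 81.9 FPKM with a Col mother and again at 0 with a Ler mother (limma adjusted p = 1.03e-04). These 3 genes kept their calls within both wordings and without any single library. Few of their exon 31-mers, 0% for AT3G45730 and GSTU9 and 3.8% for AT5G54560, occur again in the TAIR10.1 genome.

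Other leading genes showed the same form. The transcription factor gene bZIP75 was at 143, 95.1 and 202 FPKM with a Col mother, against 0, 0 and 5.93 FPKM with a Ler mother (6.21 ± 1.19, limma adjusted p = 0.00269). AT5G63070, a ribosomal protein S19 family member, was at 256, 274 and 30.6 FPKM against 6.61, 0.34 and 1.28 FPKM (5.52 ± 0.73, limma adjusted p = 6.84e-05). In AT5G63070 the second-wording library of the Col mother was the lowest of the 3, yet above every Ler library. The uncharacterized AT4G12735 was at 113, 137 and 128 FPKM with a Col mother, against at most 0.47 FPKM with a Ler mother. AT2G14247, also uncharacterized, was at 34.8, 166 and 126 FPKM with a Col mother and at 0 with a Ler mother.

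Genes lower with a Col mother formed the mirror image. AT5G17340, a putative membrane lipoprotein, was at 0 in all 3 Col libraries, against 319, 18.6 and 139 FPKM with a Ler mother (limma adjusted p = 5.25e-05). ANNAT1, the calcium- and membrane-binding annexin 1, was at 0 with a Col mother, against 37.8, 40.5 and 89 FPKM with a Ler mother (limma adjusted p = 1.52e-04). AT3G22060, a receptor-like kinase-related protein, was at 0 with a Col mother, against 21.2, 33.4 and 47.1 FPKM with a Ler mother (limma adjusted p = 1.11e-06). None of the 3 had a Col library above 0. GAT1_2.1, a glutamine amidotransferase-like gene, was at 23.6, 0.32 and 3.26 FPKM with a Col mother, against 133, 133 and 223 FPKM with a Ler mother (-4.94 ± 0.93, limma adjusted p = 0.00234; 0.0551 with a pseudocount of 0.1). NIT2, a nitrilase that can turn indole-3-acetonitrile into auxin, was at 0.03 FPKM or less with a Col mother, against 17.1, 23.2 and 51.1 FPKM with a Ler mother (limma adjusted p = 0.00208). The type-A cytokinin response regulator ARR3 was at 0.15, 0 and 3.95 FPKM with a Col mother, against 39.4, 49.7 and 21.6 FPKM with a Ler mother (-4.33 ± 0.86, limma adjusted p = 0.00353). GLYI7, of the glyoxalase I family, AT4G03610, a metallo-hydrolase, and the noncoding AT3G57157 complete the 12, at no more than 0.13 FPKM with a Col mother and at 2.87 to 60 FPKM with a Ler mother.

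**Figure D1:**
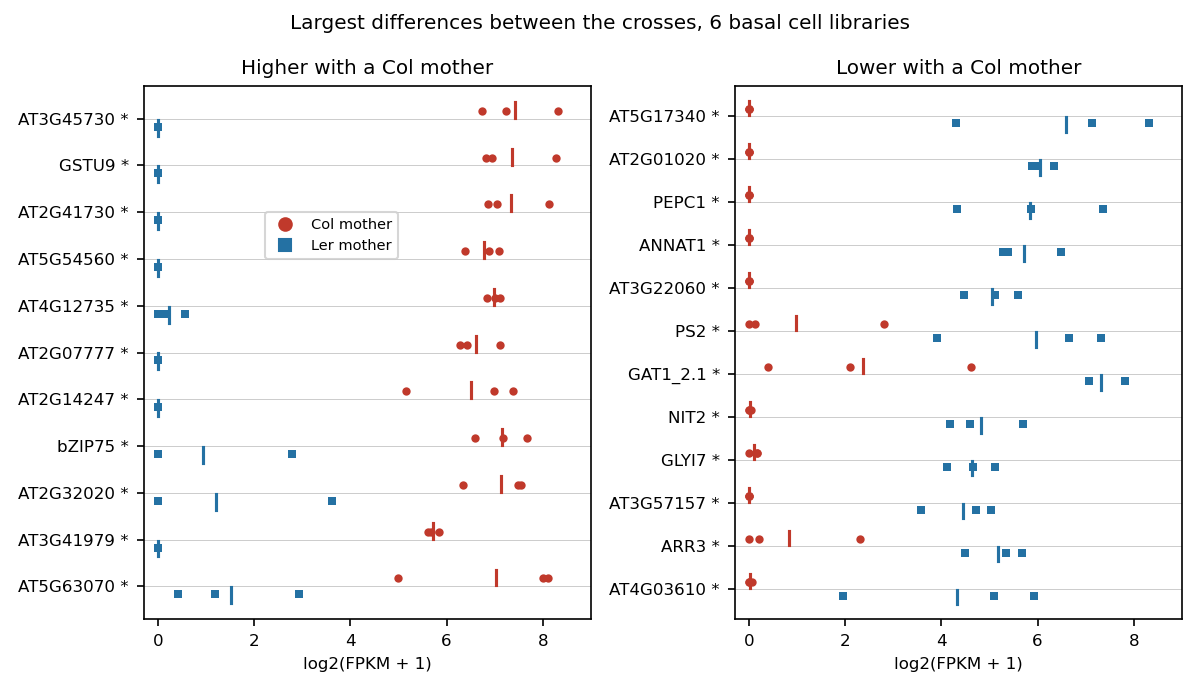
The largest called differences in each direction among genes with a mean of at least 10 FPKM in the higher cross, as log2(FPKM + 1) in each of the 3 Col mother libraries (red circles) and 3 Ler mother libraries (blue squares), with short vertical lines at the means and asterisks at called genes. Only genes without overlap between the crosses were drawn. Many are listed at 0 throughout the lower cross, such as AT3G45730 at 105 to 319 FPKM against 0.

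A pair of these leading loci is not to be read as separate genes. AT3G41979, annotated as 5.8S ribosomal RNA, was at 48, 56.3 and 49.8 FPKM with a Col mother and at 0 with a Ler mother. AT2G01020, also annotated as ribosomal RNA, was at 0 with a Col mother and at 61.5, 57.6 and 79.4 FPKM with a Ler mother. Each of the 2 loci has 134 exon 31-mers. All exon 31-mers of both loci (100%) occur more than once in the genome, and the 2 loci were listed with equal values in 16 libraries of other cells. Their sum was 48, 56.3 and 49.8 FPKM with a Col mother, against 61.5, 57.6 and 79.4 FPKM with a Ler mother. The values of these 2 loci are uncertain, and their opposite calls are not given as results. The same limit holds for AT2G07777, annotated as mitochondrial ATP synthase subunit 9, at 85.2, 76.5 and 137 FPKM with a Col mother and at 0 with a Ler mother, since 97.1% of its 31-mers occur again. It lies in the copy of mitochondrial DNA that the Col genome carries in chromosome 2. Loci numbered AT2G07660 to AT2G07899, in and around that copy, were picked after values had been seen. Of 62 tested, 9 were higher with a Col mother and 0 lower, with a median difference of 0.98. Among all genes 3.97% were higher and 3.10% lower. Within the first wording the median difference of these loci was 0.10, and within the second 1.56. Of the 9, 3 passed the filter only with the Col libraries, and without Col replicate 1, 6 were higher. The 8 others of these 9 have 90.5% to 100% of their 31-mers elsewhere, and loci of the organelle genomes are not analysed here, so reads of the mitochondrion itself and reads of its nuclear copy cannot be told apart.

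Many nuclear genes of the mitochondrial dysfunction response were higher with a Col mother. Of 32 such genes 30 were tested, and 11 were higher and 1 lower, with a median difference of 1.84. This list was drawn up after values had been seen and carries no test of its own; among all tested genes 3.97% were higher. In 18 of the 30 every Col library lay above every Ler library, beside 13.3% of all tested genes. The count of higher genes was 8 without Ler replicate 2, 9 without Col replicate 2 or 3, and 4 and 5 within the first and the second wording; the fit of the 6 basal cell libraries alone called 13.

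The most abundant of the called ones was AT2G21640, a marker of the oxidative stress response. It was at 422, 448 and 598 FPKM with a Col mother, against 51.5, 32.3 and 27.1 FPKM with a Ler mother (3.73 ± 0.77, limma adjusted p = 0.00512). The lowest Col library stood far above the highest Ler library. AT2G41730, a calcium-binding site protein, was at 131, 115 and 280 FPKM with a Col mother and at 0 with a Ler mother (limma adjusted p = 0.00281). The acetyltransferase-like gene AT2G32020 was at 187, 178 and 79.9 FPKM with a Col mother, against 0, 11.2 and 0 FPKM with a Ler mother (5.92 ± 1.14, limma adjusted p = 0.00281).

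Detoxification genes of this response followed. The efflux carrier gene AT2G04050, of the MATE family, was at 30.6, 48.5 and 145 FPKM with a Col mother, against 0.03, 2.26 and 4.91 FPKM with a Ler mother (4.50 ± 0.88, limma adjusted p = 0.00319). MO1, a monooxygenase, was at 30, 31.9 and 96.5 FPKM with a Col mother, against 2.19, 0 and 0 FPKM with a Ler mother (4.98 ± 1.06, limma adjusted p = 0.00611). The cytochrome P450 gene CYP81D8 was at 111, 122 and 56.7 FPKM with a Col mother, against 7.35, 7.57 and 9.53 FPKM with a Ler mother (3.35 ± 0.58, limma adjusted p = 0.00124). None of these 3 lost its call when a single library was left out.

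Col replicate 3 carried much of the rest. UGT74E2, which conjugates glucose to the auxin indole-3-butyric acid, was at 4.65, 16.9 and 67.3 FPKM with a Col mother and at 0 with a Ler mother (limma adjusted p = 0.0217; 0.0996 without Col replicate 3, 0.0591 without Col replicate 2, 0.0726 without Ler replicate 2). GSTU24, another glutathione S-transferase, was at 6, 21.1 and 41.6 FPKM against 0 (limma adjusted p = 0.0117; 0.0534 without Col replicate 3). AT5G14730, uncharacterized, was at 4.04, 7.65 and 13.4 FPKM against 0 (limma adjusted p = 0.0161; 0.0605 without Col replicate 3, 0.0576 without Ler replicate 2). In these 3 the second-wording library of the Col mother held the highest value. CRF6, a cytokinin response factor, was instead even, at 104, 100 and 71.4 FPKM with a Col mother, against 27.8, 22.3 and 19.3 FPKM with a Ler mother (1.94 ± 0.55, limma adjusted p = 0.0351; 0.0824 to 0.109 without Col replicate 1 or 2 or Ler replicate 2 or 3).

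AOX1A itself was at 510, 461 and 368 FPKM with a Col mother, against 140, 102 and 46.3 FPKM with a Ler mother. The crosses did not overlap, but the difference of 2.33 ± 1.01 was not called (limma adjusted p = 0.172). The alternative NADH dehydrogenases NDA1 (1.97 ± 0.61, limma adjusted p = 0.053) and NDB2 (1.66 ± 0.52, limma adjusted p = 0.0535) came close to the threshold without passing it. The regulators did not share a direction. NAC017 was lower with a Col mother, at 13.2, 5.02 and 16.7 FPKM, against 29.6, 45.2 and 61 FPKM with a Ler mother (-1.95 ± 0.39, limma adjusted p = 0.00371). NAC13 was at 48.6, 31.4 and 71.8 FPKM with a Col mother, against 23.6, 37.4 and 23.6 FPKM with a Ler mother, and was not called (0.78 ± 0.74, limma adjusted p = 0.612).

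**Figure D2:**
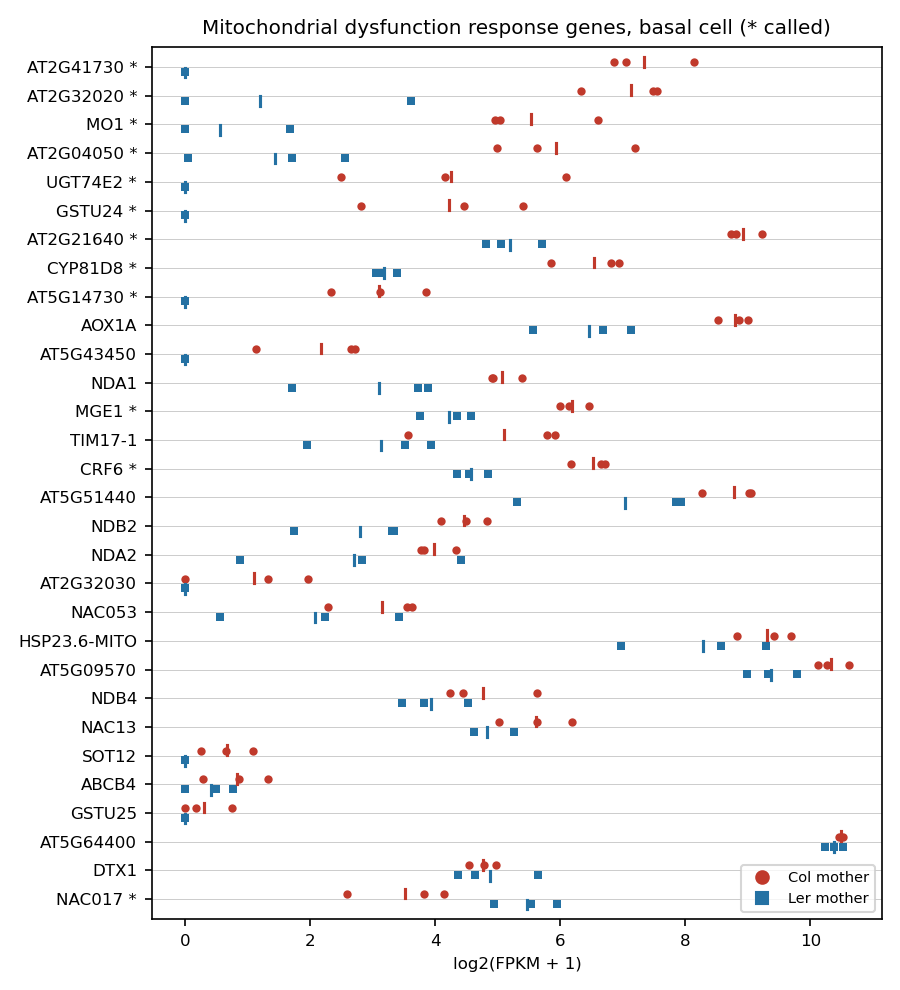
The 30 tested genes of the mitochondrial dysfunction response, ordered by their difference, as log2(FPKM + 1) in each of the 3 Col mother libraries (red circles) and 3 Ler mother libraries (blue squares); short vertical lines are means and asterisks mark called genes. The 11 genes called higher lie within the top 15 lines, and NAC017, at 5.02 to 16.7 FPKM against 29.6 to 61 FPKM, is the only one called lower.

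Some genes for protein import and folding in the mitochondrion were also higher. Of 30 tested members of a second list drawn up after values had been seen, 4 were higher and 0 lower, with a median difference of 0.39, against the 3.97% higher among all genes; leaving out single libraries gave 3 to 6 higher, the fit without the suspensor 11, and within the first wording 0 were called. MGE1, the nucleotide exchange factor of mitochondrial HSP70, which the previous list also holds, was at 62.5, 86.7 and 69.8 FPKM with a Col mother, against 22.7, 19.4 and 12.5 FPKM with a Ler mother (1.97 ± 0.35, limma adjusted p = 0.00138). The chaperonin gene AT1G23100, of the GroES-like family, was at 586, 672 and 580 FPKM with a Col mother, against 258, 214 and 152 FPKM with a Ler mother (1.58 ± 0.30, limma adjusted p = 0.00237). VDAC3, a pore of the outer membrane, was at 945, 879 and 1069 FPKM with a Col mother, against 546, 537 and 514 FPKM with a Ler mother (0.85 ± 0.17, limma adjusted p = 0.00462). Within each cross these 3 genes varied little beside the distance between the crosses. The HSP70 gene mtHsc70-1 was at 342, 376 and 320 FPKM with a Col mother, against 225, 218 and 153 FPKM with a Ler mother (0.82 ± 0.20, limma adjusted p = 0.0135; 0.0629 without Col replicate 2, 0.0601 without Ler replicate 3). The import pores TOM40 (0.11 ± 0.22) and TIM17-2 (-0.06 ± 0.21) were not called.

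The DUF295 genes, a plant family of F-box-related proteins of mostly unknown role, held several of the sharpest differences. Of 24 tested members 8 were higher with a Col mother and 1 lower, beside 3.97% and 3.10% of all genes; this family too was picked after values had been seen. AT4G14260, AT4G25930 and AT5G52940, 3 of the 8, passed the filter only with the Col libraries, so the count supports nothing by itself. Without Col replicate 1, Col replicate 2 or Ler replicate 2, 4, 4 and 5 members were higher. AT4G25930 was at 85.8, 88.8 and 103 FPKM with a Col mother, against 13.5, 0 and 0 FPKM with a Ler mother. AT5G54550, which adjoins AT5G54560 in locus number, was at 26.1, 26.7 and 27.2 FPKM with a Col mother, against 0.04, 0 and 0 FPKM with a Ler mother (4.77 ± 0.65, limma adjusted p = 8.41e-05). AT5G03390 was at 9.42, 8.92 and 13.4 FPKM with a Col mother, against 0.05, 0.1 and 0.29 FPKM with a Ler mother (3.32 ± 0.71, limma adjusted p = 0.00654). The 3 Col libraries were nearly level for AT4G25930 and AT5G54550. AT1G65760 and AT5G52930 lost their calls without Ler replicate 2 (adjusted p of limma 0.253 and 0.158), Col replicate 1 (0.127 and 0.0656), Col replicate 2 (0.0588 and 0.141) and Ler replicate 3 (0.0517 and 0.104), and AT1G65760 also without Col replicate 3 (0.0628). AT4G14260 was at 5.93, 6.34 and 15.6 FPKM with a Col mother, against at most 0.04 FPKM with a Ler mother. AT5G52940 was at 15, 15.6 and 0 FPKM with a Col mother, against 0 with a Ler mother. The member lower with a Col mother, AT1G67160, was at 0.04, 0 and 0 FPKM against 0.81, 2.82 and 6.02 FPKM (limma adjusted p = 0.0153; 0.0576 without Ler replicate 2, 0.0691 without Ler replicate 3, 0.05 without Col replicate 2).

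Several phosphate starvation genes were lower with a Col mother. Of 24 tested members of a list drawn up after values had been seen, 5 were lower and 1 higher, with a median difference of -0.57, while 3.10% of all genes were lower; within the second wording 1 was lower and 2 were higher. PEPC1, a phosphatase that frees phosphate from lipid head groups, was at 0 in all 3 Col libraries, against 163, 18.9 and 57.5 FPKM with a Ler mother (limma adjusted p = 0.00138). The pyrophosphatase gene PS2 was at 0.09, 0 and 5.98 FPKM with a Col mother, against 159, 14.1 and 98.8 FPKM with a Ler mother (-4.98 ± 0.91, limma adjusted p = 0.0018). The acid phosphatase gene PAP17 was at 0.86, 0.04 and 0.92 FPKM with a Col mother, against 18, 4.84 and 12.7 FPKM with a Ler mother (-2.89 ± 0.59, limma adjusted p = 0.00468). In all 3 genes Ler replicate 2 was the lowest of its cross. The phosphate carrier PHT1;7 was at 0 with a Col mother, against 25, 9.43 and 20.2 FPKM with a Ler mother (limma adjusted p = 0.00221). SPX2, a phosphate sensor that restrains this response, went the other way, at 20.2, 23.6 and 59.4 FPKM with a Col mother, against 8.89, 0.39 and 4.89 FPKM with a Ler mother (2.87 ± 0.64, limma adjusted p = 0.00854; 0.0719 without Ler replicate 2). PHR1, the master regulator of the response, was not called (0.29 ± 0.37, limma adjusted p = 0.738). The fifth lower gene, the glycerol-3-phosphate transporter gene G3Pp1, was at 0 against 4.84, 1.3 and 2.57 FPKM (limma adjusted p = 0.0356; 0.0613 to 0.122 without Ler replicate 1 or 3 or any Col library).

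Iron genes moved in both directions. Plants short of iron switch on bHLH regulators and iron transport and lower ferritin and iron superoxide dismutase. Of 17 tested genes in a list drawn up after values had been seen, 4 were higher and 2 lower with a Col mother, with a median difference of 0.00, beside 3.97% and 3.10% of all genes; without any single Col library 1 was higher. The regulator gene bHLH38, 1 of the 4, passed the filter only with the Col libraries. FSD1, the iron superoxide dismutase of the plastid and cytosol, was at 126, 110 and 262 FPKM with a Col mother, against 728, 1078 and 1651 FPKM with a Ler mother (-2.82 ± 0.32, limma adjusted p = 1.08e-05). It was called within both wordings. OPT3, a phloem iron transporter, was at 66.2, 75 and 33.9 FPKM with a Col mother, against 2.08, 1.56 and 18.6 FPKM with a Ler mother (3.39 ± 0.71, limma adjusted p = 0.0053). For bHLH38 the libraries were at 3.69, 14.4 and 9.5 FPKM with a Col mother and at 0 with a Ler mother. MYB10 was higher (2.25 ± 0.67, limma adjusted p = 0.0433), as was the iron sensor gene BTS (1.85 ± 0.52, limma adjusted p = 0.033). The ferritin gene FER1 was lower (-1.69 ± 0.46, limma adjusted p = 0.0277). Those last 3 calls were lost without single libraries: MYB10 without any but Ler replicate 1 (limma adjusted p = 0.0867 to 0.199), BTS without any but Ler replicate 3 (0.0585 to 0.122), and FER1 without Col replicate 1 or 3 or Ler replicate 2 or 3 (0.0522 to 0.114). The other ferritins FER2, FER3 and FER4 were not called (limma adjusted p = 0.277 to 0.591).

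**Figure D3:**
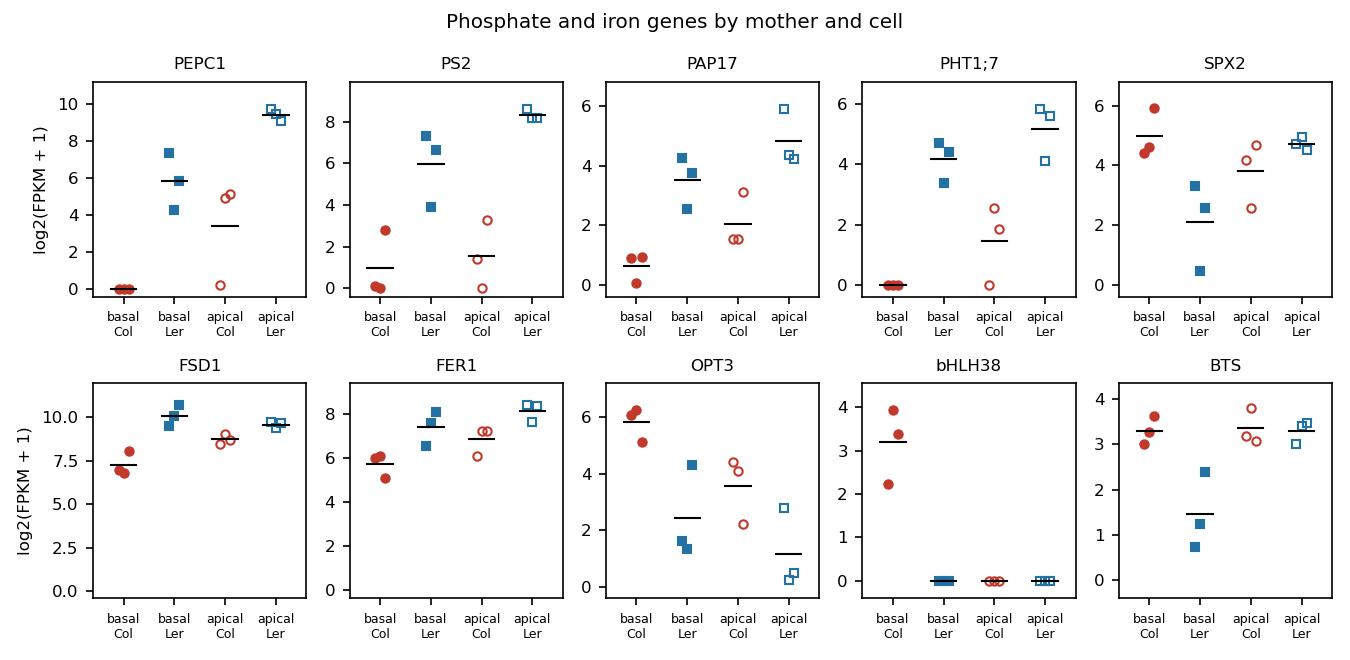
Called phosphate genes (upper row; G3Pp1 is left out) and iron genes (lower row; MYB10 is left out) as log2(FPKM + 1) in single libraries of the basal cell (filled) and apical cell (open), Col mother (red circles) left of Ler mother (blue squares) for each cell, with lines at the means of 3 libraries. PEPC1, PS2, PAP17 and PHT1;7 are lower with a Col mother in both cells, while bHLH38 is above 0 only in the 3 basal cell libraries with a Col mother.

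None of the regulators of the basal lineage passed the test. Of 24 tested members of that list 0 were called by limma, with a median difference of 0.03; 4 had an unadjusted p under 0.05, against 3995 of the 18206 tested genes. The Col libraries lay all above the Ler libraries in 2 members and all below in 3, beside 13.3% and 10.7% of all tested genes. WRKY2 was at 33.8, 22.2 and 24.4 FPKM with a Col mother, against 24.6, 35.6 and 26.6 FPKM with a Ler mother (-0.11 ± 0.62, limma adjusted p = 1). YDA was at 6.86, 11.7 and 7.57 FPKM against 7.95, 12.8 and 11.9 FPKM (-0.30 ± 0.49, limma adjusted p = 0.818). The metal-binding NAKR1, the most abundant member, was at 352, 496 and 178 FPKM against 412, 440 and 787 FPKM (-0.73 ± 0.67, limma adjusted p = 0.591). SSP was listed at 0 in all 6 libraries. PIN7 (-0.27 ± 0.61), which carries auxin out of the basal lineage, HDG11 (-0.54 ± 0.39) and RKD4 (0.91 ± 0.72) were not called. With library weights 5 members, RKD4 among them, were higher and 2 lower, without the suspensor 1 and 1, without Col replicate 3, 1 and 0, and in the basal cell libraries alone 0 and 1.

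Apical and fertilization lists held at most 1 call in a direction, beside 3.97% higher and 3.10% lower among all genes. WOX2, an apical lineage regulator, was at 59.6, 87.6 and 92.8 FPKM with a Col mother, against 125, 127 and 74.2 FPKM with a Ler mother, and was not called (-0.42 ± 0.56, limma adjusted p = 0.744). Of 28 apical regulators the class III homeodomain gene ATHB-15 alone was called, at 5.08, 3.44 and 5.11 FPKM against 1.3, 0 and 0 FPKM (2.05 ± 0.60, limma adjusted p = 0.0392; 0.0735 to 0.154 without any single library but Ler replicate 1). Of 11 female gametophyte genes the receptor kinase gene FER was higher, at 22.9, 18.3 and 11.8 FPKM with a Col mother, against 4.73, 2.35 and 0.98 FPKM with a Ler mother (2.43 ± 0.55, limma adjusted p = 0.00899). The egg cell peptide gene EC1.4 was lower, at 0 with a Col mother, against 13.8, 0.43 and 12.9 FPKM with a Ler mother, and passed the filter only with the Ler libraries. Of 8 sperm and pollen genes DAZ3, a zinc finger gene, was higher, at 22.5, 5.39 and 35.4 FPKM against 0 (limma adjusted p = 0.0207; 0.0697 without Col replicate 1, 0.0754 without Col replicate 3, 0.0692 without Ler replicate 2). The gamete fusogen gene HAP2 was lower (-2.24 ± 0.66, limma adjusted p = 0.0414; 0.0824 to 0.187 without Col replicate 1 or 2 or Ler replicate 2 or 3).

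Seed maturation genes were called in both directions. Of 14 tested members 3 were lower and 1 higher with a Col mother, with a median difference of -0.01, beside 3.10% lower and 3.97% higher among all genes; without Col replicate 2, 1 was lower. LEC1, a master regulator of embryo maturation, was at 303, 462 and 541 FPKM with a Col mother, against 759, 792 and 608 FPKM with a Ler mother (-0.76 ± 0.23, limma adjusted p = 0.0473). OLEO3, of the oil body coat, was at 0 with a Col mother, against 17.4, 4.55 and 30.1 FPKM with a Ler mother (limma adjusted p = 0.0083). FUS3, another maturation regulator, was at 4.44, 0 and 0.12 FPKM against 6.27, 6.37 and 13.2 FPKM (-2.32 ± 0.57, limma adjusted p = 0.016). ABI4, a transcription factor of abscisic acid signalling, went the other way, at 5.09, 4.17 and 10.4 FPKM with a Col mother and at 0 with a Ler mother (limma adjusted p = 0.00361). The LEC1 call was lost without Col replicate 1 or 2 or Ler replicate 1 or 2 (limma adjusted p = 0.0836 to 0.244), and that of FUS3 without Col replicate 2 or 3 or Ler replicate 3 (0.0574 to 0.0906).

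Stress and wounding genes were also called in both directions. Of 29 tested members 4 were higher and 1 lower, with a median difference of 0.34, beside 3.97% and 3.10% of all genes; without Ler replicate 1 or 2 and within the first wording, 1, 1 and 0 were higher. TCH4, a touch-induced cell wall enzyme, was at 412, 345 and 347 FPKM with a Col mother, against 118, 59.3 and 113 FPKM with a Ler mother (1.98 ± 0.41, limma adjusted p = 0.0053). VSP2, a jasmonate-induced storage protein, was at 0 with a Col mother, against 18.3, 25.2 and 3.28 FPKM with a Ler mother, and passed the filter only with the Ler libraries. AT4G33070, a pyruvate decarboxylase gene of low oxygen, was at 165, 184 and 149 FPKM against 14.6, 24.9 and 47.4 FPKM (2.63 ± 0.79, limma adjusted p = 0.0452; 0.0792 to 0.137 without any single library but Ler replicate 3). The zinc finger gene ZAT6 was at 4.89, 2.77 and 34.4 FPKM against 0, 0 and 0.39 FPKM (3.05 ± 0.85, limma adjusted p = 0.0313; 0.158 without Col replicate 3, 0.0707 without Ler replicate 1, 0.108 without Ler replicate 2). Of 21 heat shock genes 1 was higher, or 4.8% beside 3.97% of all genes, the factor gene HSFB2A (1.95 ± 0.58, limma adjusted p = 0.0454; 0.116 to 0.181 without Col replicate 1 or 3 or Ler replicate 2 or 3).

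Growth, chromatin and transport lists held at most 2 calls in a direction, beside 3.97% higher and 3.10% lower among all genes. Of 38 cell cycle genes 1 was higher and 1 lower, of 31 auxin genes 1 and 1, of 37 DNA methylation and small RNA genes 0 and 1, and of 26 polycomb and histone variant genes 0 and 2. In the polycomb and histone variant list 12 genes had an unadjusted limma p under 0.05, beside 3995 of the 18206 tested genes. In 10 of its 26 genes every Col library lay below every Ler library, beside 10.7% of all genes, and the median difference was -0.32. Of 7 genes imprinted in endosperm and of 22 genes known to be polymorphic between Col and Ler, 0 were called by limma, with 3 and 7 at an unadjusted p under 0.05. Nutrient transport held 2 higher (10%) and 1 lower of 20, photosynthesis 0 and 2 (7.1%) of 28, reference genes 1 and 1 of 12, endosperm markers 0 and 1 of 8, and seed coat markers 0 and 1 of 12. Among larger families picked after values had been seen, 22 of 257 pentatricopeptide repeat genes, which act on organelle RNA, were higher and 5 lower, with a median difference of 0.49; without Ler replicate 2, 4 were higher, and 11 and 10 without Col replicates 1 and 2. Ribosomal protein genes held 15 higher (4.6%) and 1 lower of 325, but 5 to 8 higher without Ler replicate 2 or any single Col library, and 10 without Ler replicate 3. Defensin-like genes held 1 higher and 6 lower (9.7%) of 62, but 3 and 2 without Ler replicate 1. Without Col replicate 1 or 2, 4 were lower. Their median difference was -1.49 within the first wording and 0.00 within the second. The higher defensin-like gene and 2 of the 6 lower ones passed the filter only with the cross where they were high. So did 1 of the 2 higher nutrient transport genes and 1 of the 22 higher pentatricopeptide repeat genes. The lower ribosomal protein gene and 1 of the 5 lower histone genes did too. Histone genes held 1 higher and 5 lower (5.3%) of 94, but 2 and 0 without Ler replicate 1. They held 2 lower without Col replicate 1, Col replicate 2 or Ler replicate 2, and 3 lower without Col replicate 3. FLC, which differs in strength between these accessions, was at 16.2, 9.5 and 5.67 FPKM with a Col mother, against 19.1, 13.5 and 11.6 FPKM with a Ler mother (-0.53 ± 0.78, limma adjusted p = 0.781). ER, mutant in Ler, was at most 1.11 FPKM with a Col mother and 3.84 FPKM with a Ler mother (-0.38 ± 0.66, limma adjusted p = 0.83). HTA7, a histone H2A variant gene, was at 20.5, 21.9 and 14.1 FPKM with a Col mother, against 91.8, 47 and 79.5 FPKM with a Ler mother (-1.86 ± 0.46, limma adjusted p = 0.0169; 0.0596 without Col replicate 3, 0.0577 without Ler replicate 1). The chromatin protein gene HMGB1 was at 54.8, 54.4 and 14 FPKM against 117, 93.5 and 98.4 FPKM (-1.53 ± 0.35, limma adjusted p = 0.0107). Opposite auxin calls fell on the synthesis genes YUC3, at 0 against 3.83, 2.7 and 5.91 FPKM (limma adjusted p = 0.0145), and YUC4, at 41.3, 37.5 and 27.3 FPKM against 9.38, 7.95 and 0 FPKM (2.98 ± 0.91, limma adjusted p = 0.0499; 0.0667 to 0.217 without any single library but Ler replicate 1).

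**Figure D4:**
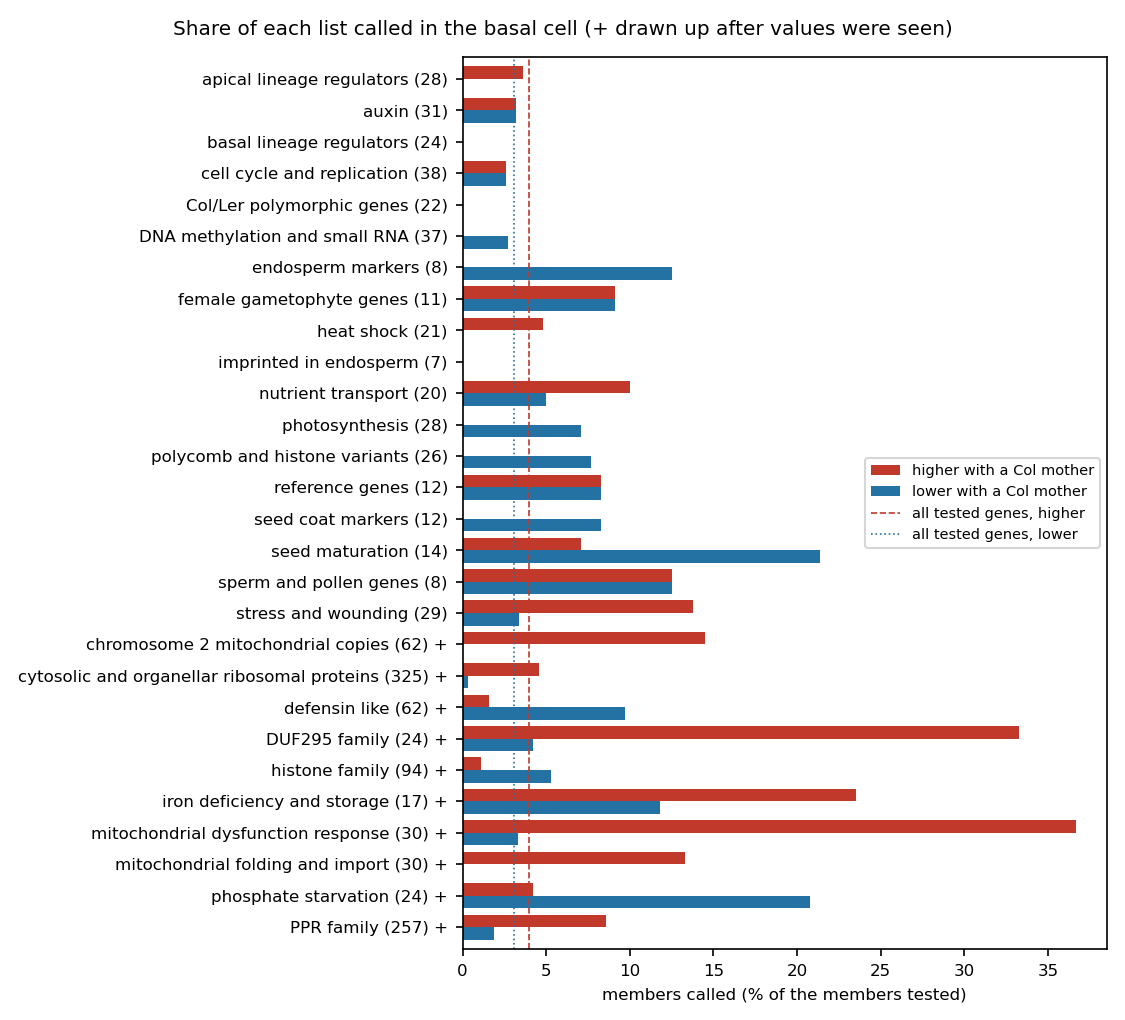
Share of the tested members of each gene list called higher (red) or lower (blue) with a Col mother in the basal cell, in percent of the number tested given in brackets; a plus marks lists drawn up after values had been seen, and the dashed and dotted lines are the shares among all tested genes, 3.97% and 3.10%. The mitochondrial dysfunction response, at 11 of 30, and the DUF295 family, at 8 of 24 with 3 that passed the filter only with the Col libraries, have the longest red bars, and seed maturation and phosphate starvation the longest blue ones.

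Abundant transcripts and genes often used as references also differed. GAPC1, a glycolytic dehydrogenase, was at 1676, 1517 and 1805 FPKM with a Col mother, against 692, 753 and 951 FPKM with a Ler mother (1.07 ± 0.22, limma adjusted p = 0.00551). The ubiquitin-conjugating PEX4, like GAPC1 often used as a reference gene, was at 55, 48.2 and 28.1 FPKM against 168, 160 and 77.3 FPKM (-1.58 ± 0.30, limma adjusted p = 0.00284). Neither lost its call when a single library was left out. LCR68, a small cysteine-rich defensin-like peptide, was the most abundant called gene, at 4227, 4921 and 6960 FPKM with a Col mother, against 12865, 7086 and 10157 FPKM with a Ler mother (-0.89 ± 0.22, limma adjusted p = 0.0169). It was not called under quantile normalization (limma adjusted p = 0.458), nor without Col replicate 1 or 2 or Ler replicate 1 (0.0641 to 0.09). ATLP-1, a thaumatin-like gene, was at 681, 646 and 727 FPKM against 1580, 1090 and 908 FPKM (-0.76 ± 0.18, limma adjusted p = 0.0143; 0.0586 without Col replicate 2, 0.0787 without Ler replicate 1). The ribosomal genes AT4G16720 (0.43 ± 0.13) and AT5G20160 (1.08 ± 0.31), the aldolase gene FBA8 (0.65 ± 0.20), the complex I gene AT1G76200 (-0.71 ± 0.21) and the ascorbate peroxidase gene APX1 (-0.56 ± 0.16) passed narrowly (limma adjusted p = 0.0341 to 0.0486), and each lost its call without at least 5 of the 6 libraries in turn (0.0508 to 0.194).

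Fewer genes were called between the crosses in the apical cell of the same stage. There 18 genes were higher and 60 lower with a Col mother (0.0989% and 0.330%). Of the 564 genes lower in the basal cell 17 were lower in the apical cell too, which is 3.0% of the basal and 28.3% of the apical calls. Of these 17, 5 are in the phosphate list, which was drawn up after values had been seen: G3Pp1, PAP17, PEPC1, PHT1;7 and PS2. Of the 24 tested genes of the phosphate list, 8 were lower and 0 higher in the apical cell. Their median difference was -1.91 there and -0.57 in the basal cell. PEPC1 was at 0.16, 29.5 and 34.6 FPKM in apical cells with a Col mother, against 851, 722 and 543 FPKM with a Ler mother (-6.01, limma adjusted p = 0.00471). ANNAT1 was there at 0, 0 and 0.32 FPKM against 255, 138 and 123 FPKM (-7.23, limma adjusted p = 4.59e-05). The 722 higher genes shared 2 with the 18 of the apical cell, and 2 others were called the opposite way there. In the suspensor, the later product of the basal cell, 529 genes were higher and 236 lower (2.91% and 1.30%; 4.20% together). It shared 24 of the 722 higher genes (3.3% of the basal and 4.5% of the suspensor calls) and 3 of the 564 lower ones (0.5% and 1.3%). Another 7 and 17 were called the opposite way. Suspensor Ler replicate 1 alone among suspensor libraries carries the second wording and listed no pair with equal values. Its part in these counts was not tested.

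For 227 genes the difference between the crosses itself differed between basal and apical cell, with 158 higher and 69 lower in the basal cell by that measure (0.868% and 0.379%; 1.25% in all), and 187 of them were among the 1286. The count was 140, 110, 362 and 109 without Col replicate 1, Col replicate 2, Ler replicate 1 and Ler replicate 2. AT5G54560 led, with 0 FPKM in all 3 apical libraries of a Col mother, against 0, 4.83 and 2.48 FPKM with a Ler mother (limma adjusted p for the difference between the cells = 0.00168). AT3G45730 followed, with 0, 1.71 and 0 FPKM in apical cells with a Col mother, against 1.99, 0 and 0 FPKM with a Ler mother (limma adjusted p = 3.19e-04). Neither gene reached 5 FPKM in any apical library. In the mitochondrial response MGE1 (2.00, limma adjusted p = 0.0439) and AT2G04050 (5.08, limma adjusted p = 0.0439) passed this test, while AT2G21640 did not (3.86, limma adjusted p = 0.0904). For MGE1 the apical libraries were at 26.1, 24.1 and 32.1 FPKM with a Col mother, against 40.4, 25.1 and 21.2 FPKM with a Ler mother. AT4G29610, a cytidine deaminase gene, was lowest by this measure: in the basal cell it was at 2.13, 0.31 and 0.25 FPKM with a Col mother, against 21.7, 29.3 and 4.84 FPKM with a Ler mother, and in the apical cell at 8.63, 10.5 and 4.69 FPKM against 0, 0 and 1.23 FPKM (-5.92 ± 1.08, limma adjusted p = 0.00562).

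**Figure D5:**
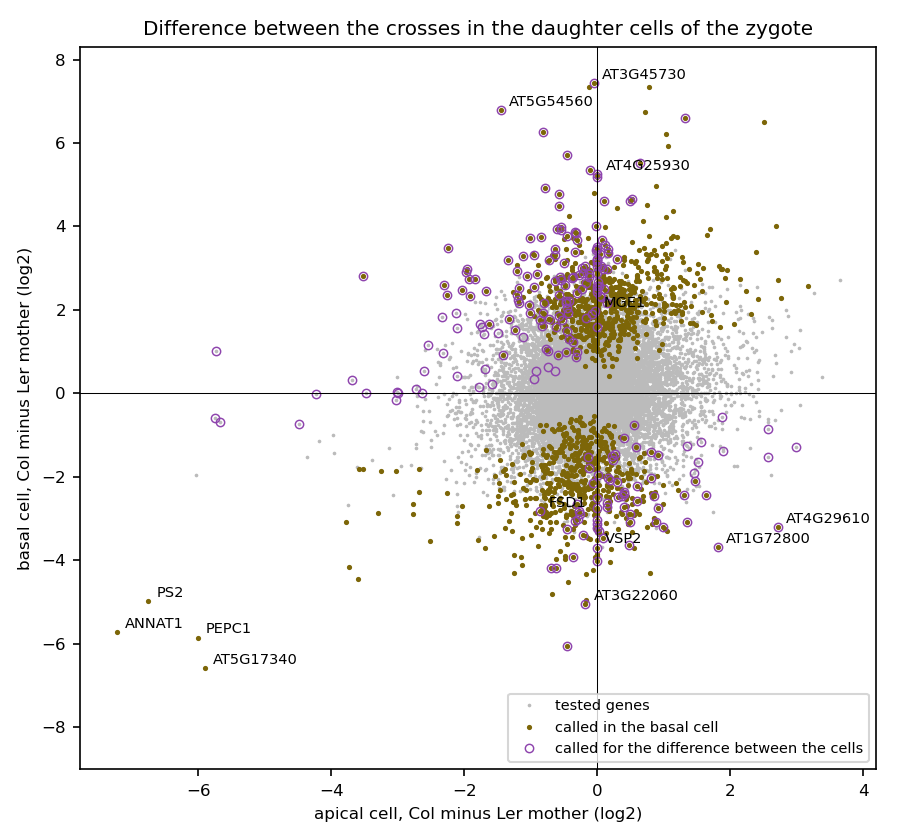
Difference between the crosses, Col minus Ler mother in log2(FPKM + 1), in the apical cell (x axis) and the basal cell (y axis) for all 18206 tested genes (grey), genes called in the basal cell (brown) and genes called for the difference between the cells (purple rings). AT3G45730 and AT5G54560 stand high on the basal axis near 0 on the apical one, while PEPC1, PS2, ANNAT1 and AT5G17340 are low on both.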

How the data were processed

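Basal cells of embryos of 2 cells were profiled by RNA-seq. Per the labels' protocols, mRNA was captured on Dynabeads and its cDNA was amplified by SMART-Seq. The authors deposited FPKM values, 1 per locus and library, for 32399 loci. Per the submitters' processing notes TopHat2 2.1.1, RSEM (no version given) and TAIR10 were used; their roles are not given in the sources used here. Depth is not stated, and low values showed no sharp step that would give it (at most 5.4% fell in 1 bin), so no counts, intervals or floors were derived.

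The 18206 loci that reached 1 FPKM in 3 or more of the 24 libraries were tested. A mean for each of the 8 groups was fitted to log2(FPKM + 1) with limma (version 3.58.1, R 4.3.3, moderated with a trend), and p-values were adjusted by Benjamini-Hochberg with a threshold of 0.05. The script was tested on simulated data. Marker sums were compared by exact permutation tests, two-sided. Python 3.11.15 made the tables and plots. Gene names and product text come from RefSeq (TAIR10.1), used for names, exon sequence repeats (31-mers) and order only; no coordinates are given because the build of the files is named TAIR10. Of the listed loci, 31912 have a RefSeq entry.

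The members and lists were chosen with earlier results of these data known. Genes were named by a rule: the 12 largest called differences in each direction with no overlap and a mean of at least 10 FPKM in the higher cross, up to 4 called members of each list, basal lineage regulators, the 5 most abundant called genes in each direction, and leading genes of the difference between the cells. A gene that the rule names is not reported here. Mitochondrial, DUF295, phosphate and iron genes were chosen after their values were seen. Alternatives tried were other pseudocounts, filters, scalings, weights, covariates, subsets, within-wording fits, a replicate block and leaving out each basal cell library.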

Additional observations from a re-analysis of the deposited data

Results flagged for a closer look

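The difference between the crosses in the basal cell was itself set against that in the apical cell, and 227 genes passed that test. The values below are the basal minus the apical difference, Col minus Ler mother, in log2(FPKM + 1). It was 8.23 for AT5G54560, 7.47 for AT3G45730, 5.28 for AT2G07777 and 4.87 for AT5G63070. Toward a Ler mother it was -5.92 for AT4G29610, -5.49 for AT1G72800, -4.87 for AT3G22060, -3.68 for VSP2 and -1.96 for FSD1. VSP2 passed the filter on low values only with the Ler libraries of the basal cell, so its place among the genes that passed carries no weight. The paired ribosomal RNA loci AT3G41979, at 6.16, and AT2G01020, at -5.61, were listed with equal values in all apical cell libraries and under a single locus in each basal cell library. The kind of value differs between basal and apical libraries throughout, as described above, and cannot be told apart from the cell.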

How the results depend on the processing

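The count of 1286 genes that differed between the crosses became 5044 with library weights, 2745 without the suspensor, 451 and 151 with the basal cell libraries alone, without and with the wording as a covariate, 526 within the first wording and 710 within the second; leaving out single libraries gave 553 to 1304. The 227 genes that differed between basal and apical cell became 148 with a minimum of 5 FPKM, 1712 with library weights, 79 with the early stage alone and 711 without the suspensor; leaving out single libraries gave 109 to 362. The 118 genes that differed by wording became 768 with no filter, 52 with a minimum of 5 FPKM, 331 with a minimum on the basal cell mean, 677 with library weights, 45 with the early stage alone, 479 without the suspensor and 0 with the basal cell libraries alone (limma; 1568 at an unadjusted p under 0.05); leaving out single libraries gave 48 to 180. The causes were not tested. FPKM without depth cannot separate absent from unsampled transcripts.

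Replicate numbers did not pair the libraries: deviations of same-numbered libraries of the crosses correlated at -0.02, 0.03 and -0.02. With the replicate number as a block, 1224 genes differed between the crosses and 206 between the cells.

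Differences of summed FPKM, Col minus Ler mother, with single libraries left out lay at -409 to -181 for basal cell markers, -39.1 to 5.17 for apical cell markers, -78.9 to 74.8 for endosperm, -39.4 to -5.19 for seed coat, -129 to -53.5 for the female gametophyte and 8.18 to 26.1 for sperm and pollen. Over the genes named by the rule and all alternatives, 1706 combinations of gene and setting kept direction and side of the threshold, 330 lost the call and 11 gained one; no called difference changed sign. Under the other scalings the median of all genes lay between -0.01 and 0.02.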
